A study of Mus musculus with 14 samples.

Results

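Claudins are the membrane proteins that form the strands of tight junctions, the seals between neighbouring epithelial cells. The 10 claudin genes Cldn1, Cldn2, Cldn3, Cldn4, Cldn6, Cldn7, Cldn8, Cldn10, Cldn12 and Cldn14 were looked up by symbol among the 20377 gene symbols of an RNA-seq table of sorted mouse liver cells. Where a symbol had several transcript rows, the row with the highest mean was used. All 10 were present, and 13 further claudin symbols served as the rest of the family. The table gives RPKM, read numbers divided by transcript length and by library size, so levels can be set side by side between genes.

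The cells came from livers of adult C57BL/6 mice in which the hepatocytes had been marked with the red fluorescent protein mTomato by making the animals chimeric. All animals had received DDC at 0.1%, a porphyrin-inducing agent that injures bile ducts and brings on a ductal reaction, for 5 to 8 weeks, and no group from uninjured liver was included among the libraries. Hepatocyte-derived ductal cells (5 libraries, numbered 219, 220, 225, 248 and 611) were sorted as MIC1-1C3+, CD11b/26/31/45-, side scatter-low and mTomato+, and came from donor hepatocytes. Cholangiocyte-derived ductal cells (5 libraries, 118, 219, 220, 225 and 611) passed the same gate, were mTomato-negative and came from the host. Hepatocytes (4 libraries, 118, 225, 248 and 611) were the third population. The labels do not say whether each library is a separate mouse, so the p-values measure only the spread between these libraries. The mTomato-negative gate is defined by the absence of the donor mark, so it takes any host cell with the same surface phenotype.

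Strands built of different claudins differ in tightness and in the ions that they pass: some claudins seal the space between cells and others form pores in it. In the liver, tight junctions between hepatocytes close the bile canaliculus, and those of the bile duct epithelium keep bile inside the ducts. The ductal cells that appear in DDC-injured liver are called oval cells or reactive ductal cells, and the comparisons ask how far such cells of hepatocyte origin resemble those of biliary origin and the hepatocytes they came from.

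The labelled identities were checked with marker genes. The summed level of 10 biliary markers was 16960 to 19736 RPKM in hepatocyte-derived ductal cells, 20456 to 22050 RPKM in cholangiocyte-derived ductal cells and 610 to 1509 RPKM in hepatocytes. The sum of 11 hepatocyte markers was 4703 to 9573 RPKM in hepatocyte-derived ductal cells, 2948 to 4575 RPKM in cholangiocyte-derived ductal cells and 48199 to 64981 RPKM in hepatocytes. Spp1 makes up most of the biliary sum, and the keratin gene Krt19 averaged 42.5 RPKM in hepatocyte-derived ductal cells, 658 RPKM in cholangiocyte-derived ductal cells and 2.86 RPKM in hepatocytes. Transcripts of other liver cells were present. Hepatocyte library 118 stood apart, with 1392 RPKM over 10 macrophage markers, 239 RPKM over 11 endothelial markers, and Krt19 at 10.36 and Epcam at 9.02 RPKM. Among the 5 mesothelial markers, Msln averaged 87.2 RPKM and Gpm6a 32.8 RPKM in cholangiocyte-derived ductal cells, while Upk3b, Wt1 and Upk1b averaged at most 1.04 RPKM there. The sum of 9 stellate cell and fibroblast markers was 9.83 to 28.7 RPKM in hepatocyte-derived ductal cells, 33.0 to 464 RPKM in cholangiocyte-derived ductal cells and 4.74 to 142 RPKM in hepatocytes.

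Promoter windows of 5 claudins are shown: Cldn4, Cldn6 and Cldn7, whose transcripts were higher in ductal cells, Cldn3, the neighbour of Cldn4 in the genome, and Cldn1, which was higher in hepatocytes. The sequences are from RefSeq (GRCm38.p6), the 250 bases before the transcription start, 5′ to 3′ on the gene's strand. RefSeq windows were matched for 9 of the 10 members, 15 windows in all, and Cldn8 had no entry in the table used. Cldn1 lies at chr16:26371840-26372089 (minus strand), Cldn3 at chr5:134985964-134986213 (plus), Cldn4 at chr5:134946935-134947184 (minus), Cldn6 at chr17:23679115-23679364 (plus), and the Cldn7 start of the transcript used here at chr11:69965171-69965420 (plus). Capitals mark matches, on either strand, to 4 searched motifs: CACCTG (the E-box read by Snail and Zeb factors), GGGCGG (the GC box of Sp1), TGACTCA (AP-1) and GGAATG (TEAD).
Cldn1: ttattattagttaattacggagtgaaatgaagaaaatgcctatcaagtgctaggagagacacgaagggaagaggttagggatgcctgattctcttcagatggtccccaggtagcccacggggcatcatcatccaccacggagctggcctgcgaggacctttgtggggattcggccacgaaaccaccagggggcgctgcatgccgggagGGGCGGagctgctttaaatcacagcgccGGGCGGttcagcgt
Cldn3: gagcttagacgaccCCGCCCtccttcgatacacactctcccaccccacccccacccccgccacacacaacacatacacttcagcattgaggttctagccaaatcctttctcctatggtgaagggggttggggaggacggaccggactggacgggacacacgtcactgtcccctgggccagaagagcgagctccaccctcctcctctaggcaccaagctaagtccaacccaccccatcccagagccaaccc
Cldn4: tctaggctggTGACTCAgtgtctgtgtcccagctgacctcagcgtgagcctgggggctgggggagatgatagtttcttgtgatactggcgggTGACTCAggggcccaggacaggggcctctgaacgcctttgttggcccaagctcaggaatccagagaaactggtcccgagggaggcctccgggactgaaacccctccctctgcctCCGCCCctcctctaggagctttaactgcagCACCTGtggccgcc
Cldn6: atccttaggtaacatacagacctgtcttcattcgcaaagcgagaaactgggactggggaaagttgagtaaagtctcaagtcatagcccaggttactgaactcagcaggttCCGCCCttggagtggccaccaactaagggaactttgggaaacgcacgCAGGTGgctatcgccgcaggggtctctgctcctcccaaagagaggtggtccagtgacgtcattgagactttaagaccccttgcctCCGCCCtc
Cldn7: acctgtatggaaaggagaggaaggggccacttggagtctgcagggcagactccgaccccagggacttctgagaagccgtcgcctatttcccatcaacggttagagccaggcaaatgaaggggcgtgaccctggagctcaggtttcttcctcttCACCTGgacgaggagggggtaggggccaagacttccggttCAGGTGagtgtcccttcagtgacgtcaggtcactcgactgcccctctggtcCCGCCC

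Each motif was searched in windows that also included the 50 bases after the start, and matches there or across the start are not among the capitals. TGACTCA stood in the Cldn4 window at positions -240 and -158 from the start and in no other member's window, and 5.20% of all 32851 RefSeq windows of that length held it. CACCTG was found in a window of Cldn3, Cldn4, Cldn6, Cldn7 and Cldn14, and 20.2% of all windows held it. GGGCGG was in a window of Cldn1, Cldn3, Cldn4, Cldn6, Cldn7, Cldn10 and Cldn12, and 35.7% of all windows held it. GGAATG was in a window of Cldn2, Cldn6, Cldn7 and Cldn14, and 14.7% of all windows held it. Cldn7, Cldn10, Cldn12 and Cldn14 had several windows, and a gene was named where any of its windows held the motif. The lists are of genes and the percentages are of windows, so they cannot be compared directly, and enrichment was not tested. The grainyhead motif AACCNGTT, in 2.09% of all windows, was in none of the 15 windows. No matches of different motifs overlapped in the printed sequences. These are matches of letters and were not tested as binding sites.

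**Figure D1:**
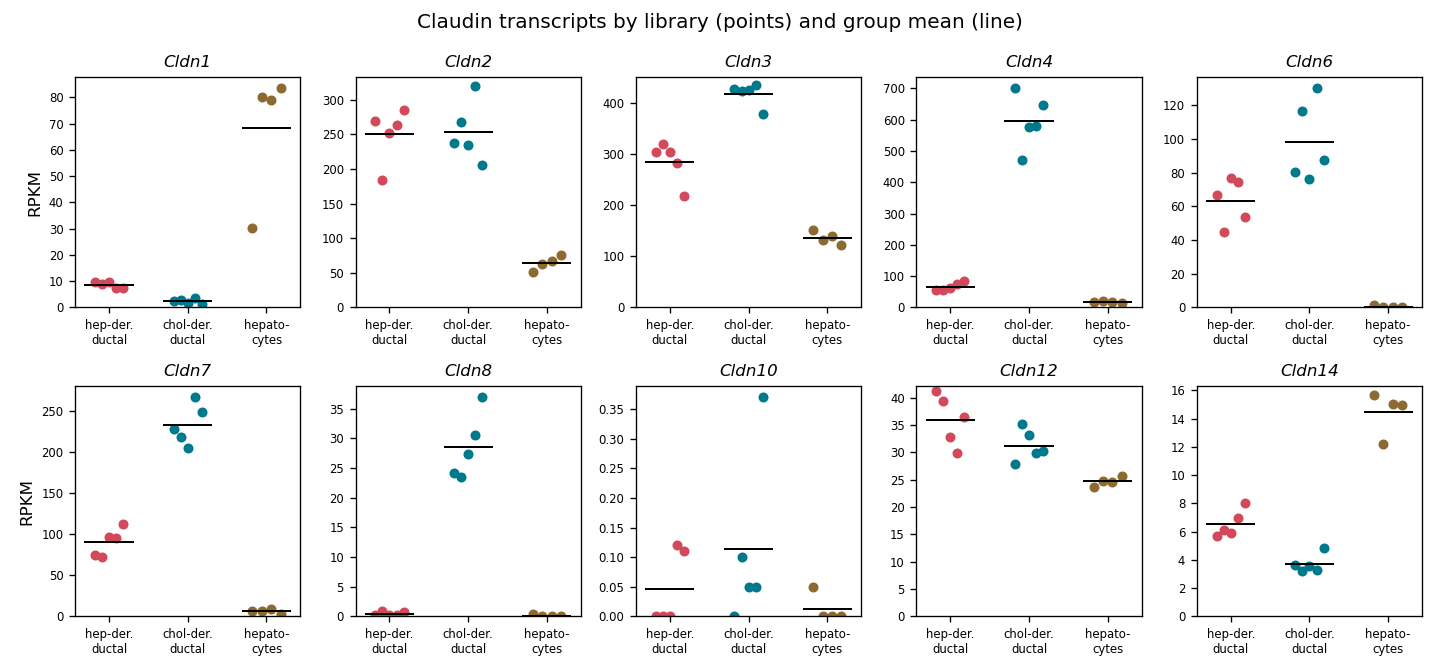
RPKM of each of the 10 claudins (linear axes from 0, one panel a gene) in hepatocyte-derived ductal cells (5 libraries), cholangiocyte-derived ductal cells (5) and hepatocytes (4). Points are libraries and lines are group means; Cldn4, Cldn7 and Cldn8 are highest in cholangiocyte-derived ductal cells, Cldn1 and Cldn14 in hepatocytes, and the ductal groups overlap in Cldn2.

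The 3 populations differed in the levels and proportions of a largely shared set of claudins. Cldn3 was the most abundant claudin in hepatocyte-derived ductal cells, at 285 ± 40.0 RPKM (SD, n = 5), and in hepatocytes, at 137 ± 12.1 RPKM (SD, n = 4), whereas Cldn4 led in cholangiocyte-derived ductal cells, at 595 ± 87.0 RPKM (SD, n = 5). In hepatocyte-derived ductal cells Cldn3 and Cldn2 overlapped in level across libraries, as did Cldn7 with Cldn4, Cldn4 with Cldn6, and Cldn1 with Cldn14. In cholangiocyte-derived ductal cells the order was Cldn4, Cldn3, Cldn2, Cldn7, Cldn6, Cldn12, Cldn8, Cldn14 and Cldn1, and the neighbours Cldn2 and Cldn7, Cldn12 and Cldn8, and Cldn14 and Cldn1 overlapped. In hepatocytes the order was Cldn3, Cldn1, Cldn2, Cldn12, Cldn4, Cldn14, Cldn7, Cldn6 and Cldn8. There, Cldn1 and Cldn2 overlapped only through library 118, Cldn4 and Cldn14 overlapped, and Cldn6 and Cldn8 were both near 0.

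Of the 10 members, 9 passed the filter of at least 1 RPKM in at least 4 libraries and were tested with limma on log2(RPKM + 1), with p-values adjusted over the 12638 genes tested (Benjamini-Hochberg) and called at an adjusted p under 0.05. In hepatocyte-derived ductal cells against hepatocytes, 6 of the 9 rose and 2 fell, where 81% of all tested genes were called, 66.2% higher and 14.8% lower. In cholangiocyte-derived ductal cells against hepatocytes, 7 rose and 2 fell, where 84.4% of all tested genes were called, 67.1% higher and 17.4% lower. In hepatocyte-derived against cholangiocyte-derived ductal cells, 2 were higher and 5 lower, where 36.2% of all tested genes were called, 15.1% higher and 21% lower. The median log2 fold change of the 9 claudins was 1.05, 1.96 and -0.56 in these 3 comparisons, and that of all tested genes was 0.67, 0.76 and -0.03. Hepatocyte library 118 and cholangiocyte-derived libraries 118 and 220 held the most macrophage, endothelial and stellate cell marker transcripts of their groups. Without these libraries, 7 claudins rose and 2 fell in each ductal group against hepatocytes. Between the ductal groups, 2 were then higher and 5 lower. For hepatocyte-derived cells against hepatocytes, that fit called 8700 of all 12638 tested genes as risen and 1895 as fallen.

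Most genes had higher RPKM in ductal cells than in hepatocytes. After each library was rescaled by its median ratio to the geometric mean of all libraries, the median change of all genes fell to 0.03 in hepatocyte-derived and 0.08 in cholangiocyte-derived ductal cells against hepatocytes. The genes called higher were then 51.3% of all calls in hepatocyte-derived ductal cells against hepatocytes (81.7% as deposited), 52.3% in cholangiocyte-derived ductal cells against hepatocytes (79.4% as deposited) and 46.7% in hepatocyte-derived against cholangiocyte-derived ductal cells (41.9% as deposited). Under quantile normalization the shares were 52.6%, 50.6% and 56.1%. With rescaling, 5 claudins were higher and 3 were lower in hepatocyte-derived ductal cells against hepatocytes, and 6 were higher and 3 lower in cholangiocyte-derived ductal cells against hepatocytes. Cldn12 was the claudin that changed sides.

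**Figure D2:**
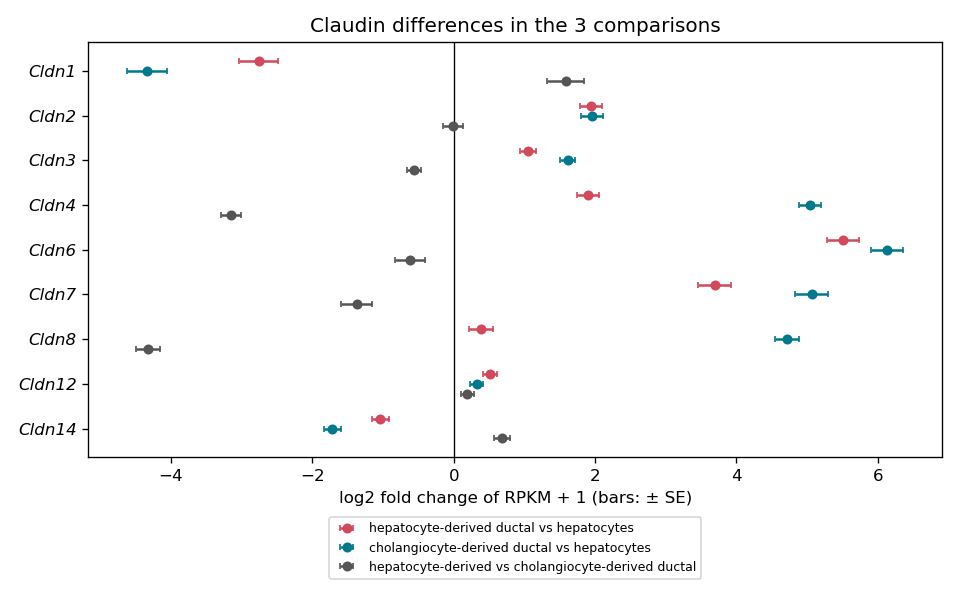
Log2 fold change of RPKM + 1 (horizontal axis, bars ± SE from the limma model) of the 9 tested claudins in hepatocyte-derived ductal cells against hepatocytes, cholangiocyte-derived ductal cells against hepatocytes, and hepatocyte-derived against cholangiocyte-derived ductal cells. Cldn6 and Cldn7 lie far right of 0 against hepatocytes in both ductal groups, and Cldn4 and Cldn8 lie far left of 0 between the ductal groups.

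Among the pore-forming claudins, Cldn2 (mm9 chrX:136335347-136345927, plus strand), which forms channels for cations and water and is typical of leaky epithelia, was high in both ductal groups. It measured 269, 183.9, 251.9, 264.3 and 285.3 RPKM in hepatocyte-derived ductal cells, 237.2, 267.7, 234.5, 319.4 and 205.6 RPKM in cholangiocyte-derived ductal cells, and 51.5, 62.8, 66.9 and 75.8 RPKM in hepatocytes. Every ductal library was above every hepatocyte library, and the ductal groups overlapped throughout. Against hepatocytes its log2 fold change was 1.95 ± 0.15 (SE, limma adjusted p = 2.60e-08) in hepatocyte-derived and 1.96 ± 0.15 (adjusted p = 1.66e-08) in cholangiocyte-derived ductal cells. Between the ductal groups the difference was -0.01 ± 0.14 (adjusted p = 0.961), with a 95% confidence interval from -0.32 to 0.30. After rescaling by median ratios the changes against hepatocytes were 1.16 in hepatocyte-derived and 1.14 in cholangiocyte-derived ductal cells. Cldn10, whose isoforms form anion or cation channels in kidney and other epithelia, was near 0: none of its 6 transcript rows exceeded 0.37 RPKM in any library, and it was not tested.

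Cldn1 (chr16:26356732-26371925, minus strand), a sealing claudin needed for the skin barrier in mice, was a hepatocyte transcript in these data. It measured 9.65, 9.04, 9.52, 7.32 and 7.29 RPKM in hepatocyte-derived ductal cells, 2.27, 2.82, 1.58, 3.61 and 1.18 RPKM in cholangiocyte-derived ductal cells, and 30.4, 80.3, 78.8 and 83.5 RPKM in hepatocytes. The 3 groups did not overlap, and hepatocyte library 118 was the low one of its group. Cldn1 fell by 2.76 ± 0.28 on the log2 scale in hepatocyte-derived ductal cells (adjusted p = 3.80e-07) and by 4.34 ± 0.28 in cholangiocyte-derived ductal cells (adjusted p = 2.05e-09), both against hepatocytes. Between the ductal groups it was higher in hepatocyte-derived cells by 1.58 ± 0.26 (adjusted p = 2.47e-04). The hepatocyte marker sum differed between the ductal groups in the same direction, 4703 to 9573 RPKM in hepatocyte-derived against 2948 to 4575 RPKM in cholangiocyte-derived cells. Its part in the Cldn1 difference was not tested. Alb makes up most of this sum, with means of 4654 RPKM in hepatocyte-derived and 2873 RPKM in cholangiocyte-derived cells. Of the single markers, Alb, Ttr, Fah, Apob and Tat were called higher in hepatocyte-derived cells. The rest were not called, and Cyp3a11 and Cyp2e1 had higher means in cholangiocyte-derived cells. Within the hepatocyte-derived group the marker sum was 4703, 9573, 6693, 5288 and 6515 RPKM in libraries 219, 220, 225, 248 and 611, in the order of the Cldn1 values above. In bulk RNA, fewer cells that carry a transcript and less of that transcript per cell cannot be told apart.

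Cldn14 (chr16:93919276-93929812, minus strand), a tightening claudin best known because its loss causes deafness in people and mice, had the same order of groups at lower levels. It measured 5.68, 6.10, 5.89, 6.94 and 8.01 RPKM in hepatocyte-derived ductal cells, 3.66, 3.19, 3.60, 3.26 and 4.86 RPKM in cholangiocyte-derived ductal cells, and 15.7, 12.2, 15.0 and 15.0 RPKM in hepatocytes. No group overlapped another. It fell by 1.04 ± 0.12 in hepatocyte-derived and by 1.72 ± 0.12 in cholangiocyte-derived ductal cells against hepatocytes on the log2 scale (adjusted p = 1.38e-06 and 4.51e-09), and was 0.68 ± 0.11 higher in hepatocyte-derived than in cholangiocyte-derived ductal cells (adjusted p = 2.39e-04). With rescaling the fold changes of Cldn14 against hepatocytes were -1.77 in hepatocyte-derived and -2.45 in cholangiocyte-derived ductal cells. Cldn1 and Cldn14 were the members called lower in both ductal groups.

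Cldn3 and Cldn4 are neighbouring genes that encode the receptors of Clostridium perfringens enterotoxin; in mm9 Cldn4 (chr5:135420993-135422804, minus strand) and Cldn3 (chr5:135462084-135463346, plus strand) point away from each other with starts 39.3 kb apart. Cldn3, a sealing claudin, measured 303.5, 319.9, 303.7, 282.1 and 218 RPKM in hepatocyte-derived ductal cells, 428.4, 423.3, 425.7, 435.3 and 379.6 RPKM in cholangiocyte-derived ductal cells, and 151.3, 131.7, 140.4 and 123 RPKM in hepatocytes. It exceeded the hepatocyte level by 1.05 ± 0.11 in hepatocyte-derived ductal cells (adjusted p = 5.02e-07), by 1.61 ± 0.11 in cholangiocyte-derived ductal cells (adjusted p = 3.49e-09), and hepatocyte-derived lay below cholangiocyte-derived ductal cells, at -0.56 ± 0.10 on the log2 scale (adjusted p = 5.50e-04). Rescaling by median ratios left differences from hepatocytes of 0.26 in hepatocyte-derived (adjusted p = 0.0400) and 0.79 in cholangiocyte-derived ductal cells.

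Cldn4, which in kidney cells of mice acts with Cldn8 as a route for chloride, separated the ductal groups much more. It measured 56.5, 55.1, 61.9, 75.1 and 83.5 RPKM in hepatocyte-derived ductal cells, 701.6, 470.2, 577.4, 578.7 and 647.7 RPKM in cholangiocyte-derived ductal cells, and 17.6, 19.9, 18.1 and 12.8 RPKM in hepatocytes. The groups lay apart, and the mean in cholangiocyte-derived cells was 8.96 times that in hepatocyte-derived cells. The log2 fold change was 1.90 ± 0.16 in hepatocyte-derived (adjusted p = 4.08e-08) and 5.05 ± 0.16 in cholangiocyte-derived ductal cells (adjusted p = 1.72e-12) against hepatocytes, and -3.15 ± 0.15 in hepatocyte-derived against cholangiocyte-derived ductal cells (adjusted p = 1.004e-09). Rescaled by median ratios, its change in hepatocyte-derived ductal cells against hepatocytes was 1.13. The ratio of Cldn4 to its neighbour Cldn3 was 0.24 ± 0.086 in hepatocyte-derived ductal cells (SD, n = 5), 1.43 ± 0.24 in cholangiocyte-derived ductal cells (SD, n = 5) and 0.13 ± 0.020 in hepatocytes (SD, n = 4).

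Cldn8 (chr16:88561071-88563428, minus strand), a claudin of the distal nephron and colon that brings Cldn4 to the junction in mouse kidney cells, exceeded 1 RPKM in cholangiocyte-derived ductal cells and in no library of the other groups. It measured 0.24, 0.91, 0.23, 0.25 and 0.77 RPKM in hepatocyte-derived ductal cells, 24.2, 23.5, 27.4, 30.6 and 36.9 RPKM in cholangiocyte-derived ductal cells, and 0.39, 0.01, 0 and 0.08 RPKM in hepatocytes. The mean in cholangiocyte-derived cells was 59.4 times that in hepatocyte-derived cells, and the log2 fold change of hepatocyte-derived against cholangiocyte-derived ductal cells was -4.33 ± 0.16 (adjusted p = 2.06e-10). Cholangiocyte-derived ductal cells exceeded hepatocytes by 4.71 ± 0.17 (adjusted p = 7.83e-12). Hepatocyte-derived ductal cells and hepatocytes overlapped, and their log2 fold change was 0.39 ± 0.17 (adjusted p = 0.0516) with a 95% interval from 0.016 to 0.76; without hepatocyte library 118 the adjusted p was 0.0180. The filter kept Cldn8 through the cholangiocyte-derived libraries alone.

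The mesothelial marker sum followed the same groups as Cldn4 and Cldn8, at 1.56 to 5.12 RPKM in hepatocyte-derived ductal cells, 92.1 to 159 RPKM in cholangiocyte-derived ductal cells and 0 to 3.09 RPKM in hepatocytes. The genes of this list with a group mean of at least 1 RPKM numbered 2 of 5 in hepatocyte-derived ductal cells, 3 of 5 in cholangiocyte-derived ductal cells and 0 of 5 in hepatocytes. The mesothelial transcription factor Wt1 averaged 0.55 RPKM in hepatocyte-derived and 0.50 RPKM in cholangiocyte-derived ductal cells. The part of these transcripts in the claudin differences was not tested.

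Cldn7 (chr11:69778923-69781388, plus strand) binds the surface protein EpCAM and sits along the lateral membrane as well as in the junction. It measured 75.3, 72.4, 97.1, 95.3 and 112.3 RPKM in hepatocyte-derived ductal cells, 229, 218.4, 205, 267.4 and 249.7 RPKM in cholangiocyte-derived ductal cells, and 6.93, 7.07, 9.14 and 2.69 RPKM in hepatocytes. No group overlapped another. Against hepatocytes it rose by 3.69 ± 0.23 in hepatocyte-derived (adjusted p = 2.84e-09) and by 5.06 ± 0.23 in cholangiocyte-derived ductal cells (adjusted p = 6.34e-11), and it was lower in hepatocyte-derived than in cholangiocyte-derived ductal cells, at -1.37 ± 0.22 on the log2 scale (adjusted p = 1.67e-04). Its partner Epcam averaged 85.3 RPKM in hepatocyte-derived ductal cells, 545 RPKM in cholangiocyte-derived ductal cells and 2.88 RPKM in hepatocytes.

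Cldn6 (chr17:23816332-23819414, plus strand), known from embryonic epithelia and from some tumours, was abundant in both ductal groups and nearly absent from hepatocytes. It measured 67.0, 45.0, 76.7, 74.3 and 53.7 RPKM in hepatocyte-derived ductal cells, 80.7, 116.9, 76.2, 130.3 and 87.3 RPKM in cholangiocyte-derived ductal cells, and 1.23, 0.14, 0.28 and 0.13 RPKM in hepatocytes. The highest hepatocyte value was in library 118, the one with Krt19 and Epcam transcripts. The filter kept Cldn6 through the ductal libraries, as no hepatocyte library but 118 reached 1 RPKM. The mean in hepatocyte-derived ductal cells was 142 times that in hepatocytes, and 346 times without library 118; in cholangiocyte-derived ductal cells it was 221 times, and 536 times without it. On the log2(RPKM + 1) scale, which understates changes of low values, the rise was 5.51 ± 0.23 in hepatocyte-derived (adjusted p = 5.42e-11) and 6.13 ± 0.23 in cholangiocyte-derived ductal cells (adjusted p = 8.81e-12). The ductal groups overlapped by 1 library on each side, and the log2 fold change of hepatocyte-derived against cholangiocyte-derived ductal cells was -0.62 ± 0.21 (adjusted p = 0.0352). With the library number as a block it was -0.54 (adjusted p = 0.138), and without any 1 of the libraries hepatocyte-derived 219, 220 or 611 or cholangiocyte-derived 219 or 225 the adjusted p was 0.0507 to 0.0926.

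Cldn12 (chr5:5505015-5514849, minus strand), a claudin that lacks the usual C-terminal anchor for scaffold proteins, was expressed in all groups within a narrow range. It measured 41.2, 39.4, 32.8, 29.9 and 36.5 RPKM in hepatocyte-derived ductal cells, 27.9, 35.1, 33.1, 30.0 and 30.3 RPKM in cholangiocyte-derived ductal cells, and 23.8, 24.8, 24.6 and 25.7 RPKM in hepatocytes. Both ductal groups lay above hepatocytes as deposited, by 0.51 ± 0.09 in hepatocyte-derived (adjusted p = 1.59e-04) and 0.32 ± 0.09 in cholangiocyte-derived ductal cells (adjusted p = 0.00561). These differences were smaller than the median change of all genes, and after rescaling by median ratios they were -0.26 (adjusted p = 0.0162) and -0.47 (adjusted p = 1.73e-04). Between the ductal groups the difference was 0.19 ± 0.09 (adjusted p = 0.116), with a 95% interval from -0.0012 to 0.38.

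Counted by separation of the libraries, 6 members lay wholly above and 2 wholly below hepatocytes in hepatocyte-derived ductal cells, where 72.2% of all tested genes did not overlap, 59.9% above and 12.4% below. In cholangiocyte-derived ductal cells 7 lay wholly above and 2 wholly below hepatocytes, where 75.2% of all tested genes did not overlap, 60.5% above and 14.7% below. Between the ductal groups, 2 members lay wholly higher in hepatocyte-derived cells and 4 wholly lower, where 33.8% of all tested genes did not overlap, 13.4% higher and 20.4% lower.

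**Figure D3:**
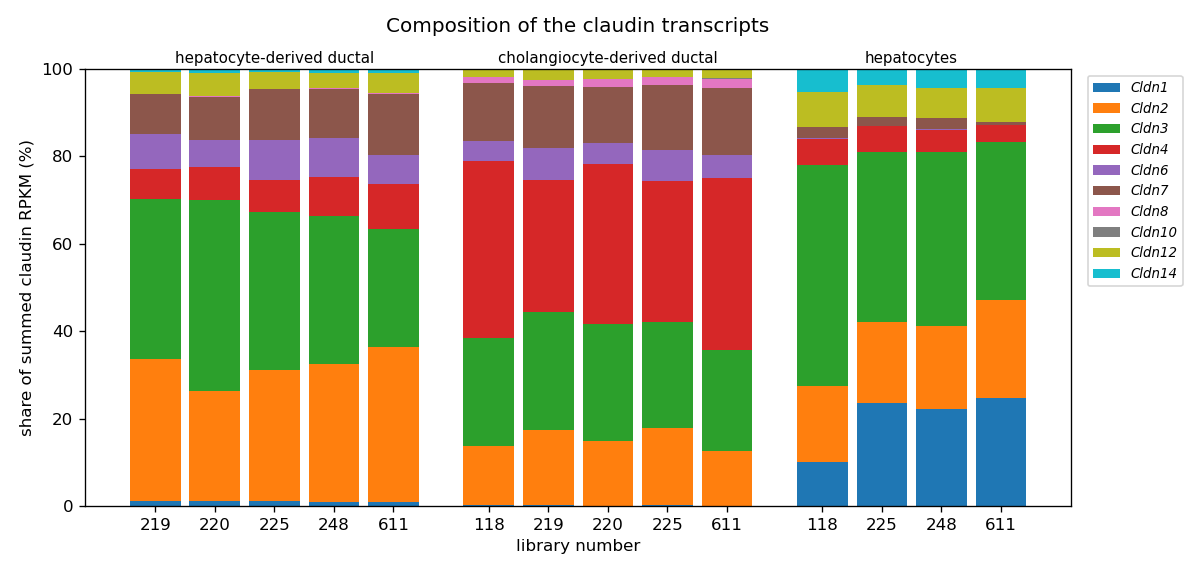
Share of the summed RPKM of the 10 claudins (%) taken by each claudin in every library of hepatocyte-derived ductal cells, cholangiocyte-derived ductal cells and hepatocytes. Cldn4 takes a mean of 35.7% in cholangiocyte-derived ductal cells, and Cldn1 a mean of 20.2% in hepatocytes.

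Shares within the family do not depend on how a whole library is scaled. The 10 claudins summed to 808 ± 44.7 RPKM in hepatocyte-derived ductal cells (SD, n = 5), 1665 ± 100.5 RPKM in cholangiocyte-derived ductal cells (SD, n = 5) and 332 ± 23.5 RPKM in hepatocytes (SD, n = 4). Cldn2 and Cldn3 together dominated in hepatocyte-derived ductal cells, with mean shares of 30.9% and 35.5%, where they held 15.2% and 25.2% in cholangiocyte-derived ductal cells and 19.3% and 41.4% in hepatocytes. Cldn4 held 8.22% of the sum in hepatocyte-derived ductal cells, 35.7% of it in cholangiocyte-derived ductal cells and 5.16% of it in hepatocytes. The mean share of Cldn6 was 7.79% in hepatocyte-derived ductal cells (6.15% to 9.13%) and 5.90% in cholangiocyte-derived ductal cells (4.65% to 7.49%). These ranges overlapped, and the difference was not tested. Its mean level had the opposite order, being lower in hepatocyte-derived ductal cells. The mean share in hepatocytes was 0.143%. Cldn7 held 11.2% of the sum in hepatocyte-derived ductal cells, 14.04% of it in cholangiocyte-derived ductal cells and 1.95% of it in hepatocytes. Cldn1 held 1.06% of the sum in hepatocyte-derived ductal cells, 0.137% of it in cholangiocyte-derived ductal cells and 20.2% of it in hepatocytes, where library 118 had 10.2%. Shares also varied within groups: Cldn3 held 27.1% (library 611) to 43.7% (library 220) in hepatocyte-derived ductal cells, 23.1% to 27.1% in cholangiocyte-derived ductal cells, and 36.3% to 50.6% in hepatocytes, with library 118 at the top.

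The ratio of Cldn4 to Cldn1 combines the ductal and the hepatocyte ends of the family in 1 value. It was 5.85 to 11.5 in hepatocyte-derived ductal cells, 160 to 549 in cholangiocyte-derived ductal cells and 0.153 to 0.579 in hepatocytes. The groups did not overlap, and hepatocyte-derived ductal cells lay between the other groups in every library. This order follows from the values above, as Cldn4 and Cldn1 each separated the groups, in opposite orders. The ratio is therefore no further evidence. The ratio of Cldn2 to Cldn3 was 0.575 to 1.31 in hepatocyte-derived ductal cells, 0.542 to 0.734 in cholangiocyte-derived ductal cells and 0.341 to 0.616 in hepatocytes, with overlap of all groups.

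The claudins differed in where they placed hepatocyte-derived ductal cells on a line from hepatocytes (0) to cholangiocyte-derived ductal cells (1), on the log2(RPKM + 1) scale. The position was 0.082 ± 0.067 for Cldn8 (SD over the 5 hepatocyte-derived libraries), 0.38 ± 0.051 for Cldn4, 0.61 ± 0.10 for Cldn14, 0.64 ± 0.042 for Cldn1, 0.65 ± 0.14 for Cldn3, 0.73 ± 0.052 for Cldn7, 0.90 ± 0.053 for Cldn6 and 0.99 ± 0.13 for Cldn2. As deposited, the values of Cldn14, Cldn1 and Cldn3 lay within their own spread of each other, and that of Cldn8 was 0.21 with a pseudocount of 0.1. Hepatocyte-derived ductal cells were therefore near hepatocytes in Cldn8, near cholangiocyte-derived ductal cells in Cldn2 and Cldn6, and intermediate in the other members named. Cldn12, which differed little between the end points, gave 1.59 ± 0.57. The positions are descriptions without a test, and they were not computed after rescaling by median ratios. They can depend on the scaling. Cldn3 exceeded hepatocytes by 1.05 in hepatocyte-derived and 1.61 in cholangiocyte-derived ductal cells as deposited. After rescaling these differences were 0.26 and 0.79.

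Of the 13 other claudins, 10 stayed at or below 0.98 RPKM in every library, and 3 passed the filter. Cldn23 averaged 4.45 ± 0.99 RPKM in hepatocyte-derived ductal cells (SD, n = 5), 11.9 ± 1.80 RPKM in cholangiocyte-derived ductal cells (SD, n = 5) and 1.46 ± 0.71 RPKM in hepatocytes (SD, n = 4). Its log2 fold changes of 1.18 in hepatocyte-derived and 2.43 in cholangiocyte-derived ductal cells against hepatocytes, and of -1.25 between the ductal groups, were all called. Cldn15, a cation pore of the intestine, averaged 1.09 RPKM in hepatocyte-derived ductal cells, 0.91 RPKM in cholangiocyte-derived ductal cells and 0.085 RPKM in hepatocytes. Cldn5, the claudin of endothelium, was at most 1.55 RPKM in hepatocyte-derived and 5.75 RPKM in cholangiocyte-derived ductal cells, reached 10.37 RPKM in hepatocyte library 118 with the other endothelial markers, and was called in no comparison.

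**Figure D4:**
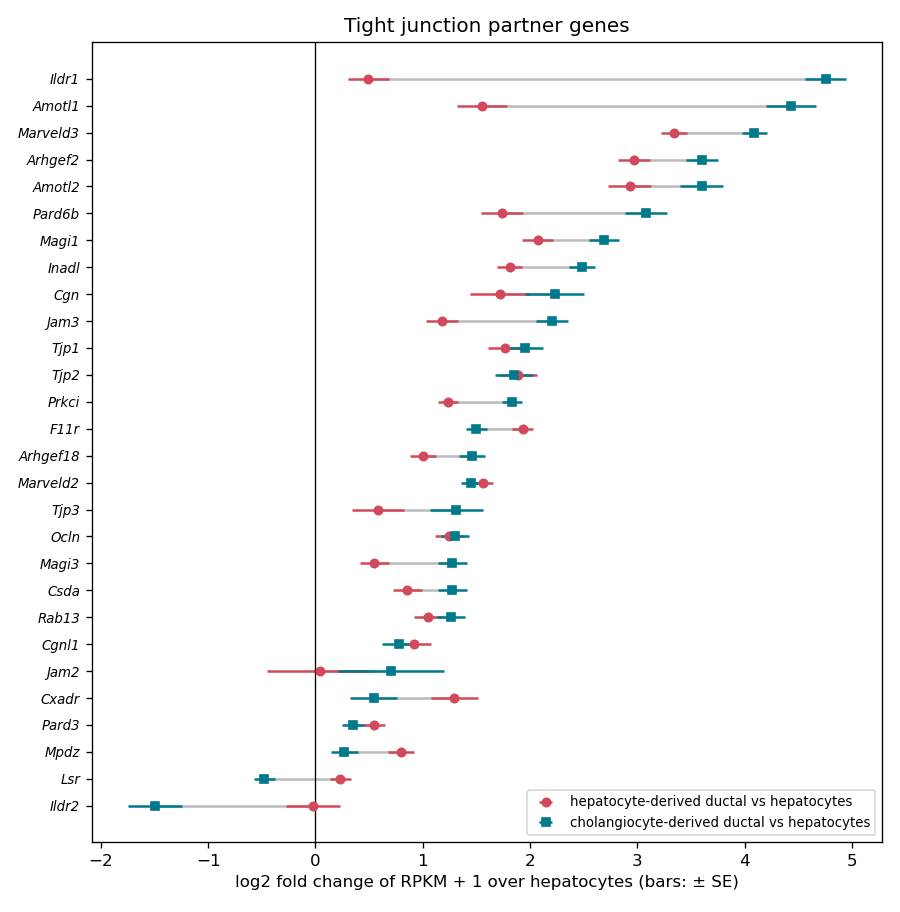
Log2 fold change of RPKM + 1 over hepatocytes (horizontal axis, bars ± SE from limma) of 28 genes of the tight junction other than claudins, in hepatocyte-derived ductal cells and cholangiocyte-derived ductal cells, ordered by the value in cholangiocyte-derived ductal cells. Ildr1 and Amotl1 show the widest gap between the ductal groups, and Lsr and Ildr2 lie left of 0 in cholangiocyte-derived ductal cells.

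As deposited, transcripts of most proteins that work with claudins were higher in ductal cells than in hepatocytes, as were those of most genes. Of 28 measured partner genes, 26 rose and 0 fell in hepatocyte-derived ductal cells against hepatocytes, with a median log2 fold change of 1.24; 24 rose and 2 fell in cholangiocyte-derived ductal cells, with a median of 1.48. Of all tested genes, 66.2% were called higher and 14.8% lower in hepatocyte-derived, and 67.1% higher and 17.4% lower in cholangiocyte-derived ductal cells. At an unadjusted limma p under 0.05, too, 0 were lower in hepatocyte-derived ductal cells. After rescaling by median ratios the counts were 17 called higher and 2 called lower in hepatocyte-derived, where 37.9% of all tested genes were called higher and 36% lower, and 20 higher and 4 lower in cholangiocyte-derived ductal cells, where 41.1% were called higher and 37.5% lower. The junction membrane protein Marveld3 averaged 12.7 ± 2.25 RPKM in hepatocyte-derived ductal cells, 21.8 ± 1.49 RPKM in cholangiocyte-derived ductal cells (SD, n = 5 each) and 0.35 ± 0.18 RPKM in hepatocytes (SD, n = 4). F11r, which encodes the adhesion molecule JAM-A, averaged 489 ± 33.7 RPKM in hepatocyte-derived ductal cells, 363 ± 36.8 RPKM in cholangiocyte-derived ductal cells and 128 ± 13.8 RPKM in hepatocytes. Arhgef2, a junction-bound exchange factor for small GTPases, Inadl, a scaffold of the Crumbs complex, Amotl2, a scaffold of the angiomotin family, and the tricellulin gene Marveld2 also rose in both ductal groups, by 1.45 to 3.60 on the log2 scale.

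Between the ductal groups, 5 partner genes were higher and 14 lower in hepatocyte-derived cells, where 15.1% of all tested genes were higher and 21% lower, with a median log2 fold change of -0.48. Ildr1, an angulin that marks the corners where 3 cells meet, averaged 0.59 ± 0.48 RPKM in hepatocyte-derived ductal cells, 28.7 ± 4.36 RPKM in cholangiocyte-derived ductal cells (SD, n = 5 each) and 0.095 ± 0.14 RPKM in hepatocytes (SD, n = 4). Its log2 fold change between the ductal groups was -4.26 ± 0.18 (adjusted p = 4.58e-10). Outside the cholangiocyte-derived group it reached 1 RPKM in hepatocyte-derived library 611 alone, so, like Cldn8, it passed the filter through the group where it was high. The other angulins were higher in hepatocyte-derived than in cholangiocyte-derived ductal cells. Lsr averaged 294 ± 16.2 RPKM in hepatocyte-derived ductal cells, 180 ± 17.2 RPKM in cholangiocyte-derived ductal cells and 252 ± 30.4 RPKM in hepatocytes. It was 0.71 ± 0.09 higher in hepatocyte-derived than in cholangiocyte-derived ductal cells (adjusted p = 2.71e-05). Against hepatocytes Lsr was 0.23 higher in hepatocyte-derived ductal cells (adjusted p = 0.0418), a call that turned to -0.56 after rescaling (adjusted p = 8.88e-05) and was lost with the library number as a block. Ildr2 averaged 18.2 ± 1.92 RPKM in hepatocyte-derived ductal cells, 6.08 ± 1.82 RPKM in cholangiocyte-derived ductal cells and 19.7 ± 7.42 RPKM in hepatocytes, and was 1.48 ± 0.24 higher in hepatocyte-derived than in cholangiocyte-derived ductal cells on the log2 scale (adjusted p = 1.84e-04). The scaffold gene Amotl1 averaged 2.87 ± 1.12 RPKM in hepatocyte-derived and 26.7 ± 2.06 RPKM in cholangiocyte-derived ductal cells, and Jam3, Pard6b and Prkci were lower in hepatocyte-derived ductal cells, with log2 fold changes of -1.02, -1.34 and -0.60.

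Of 20 transcription factors known to act on claudin promoters, 15 were tested. In hepatocyte-derived ductal cells 10 rose and 4 fell against hepatocytes, in cholangiocyte-derived ductal cells 9 rose and 5 fell, and between the ductal groups 3 were higher and 5 lower in hepatocyte-derived cells. The shares of all tested genes were 66.2% higher and 14.8% lower, 67.1% higher and 17.4% lower, and 15.1% higher and 21% lower in these comparisons. With the library number as a block, between the ductal groups Snai2 lost its call (adjusted p = 0.0929), and Zeb2 was called higher (0.98, adjusted p = 0.00591) and Klf4 lower (-0.72, adjusted p = 0.00316) in hepatocyte-derived cells. Grhl2, which in mouse epithelia binds and activates the Cldn4 gene, averaged 1.00 ± 0.91 RPKM in hepatocyte-derived ductal cells, 24.7 ± 2.84 RPKM in cholangiocyte-derived ductal cells (SD, n = 5 each) and 0.11 ± 0.16 RPKM in hepatocytes (SD, n = 4). Its log2 fold change between the ductal groups was -3.77 ± 0.21 (adjusted p = 7.50e-09). It too passed the filter through the cholangiocyte-derived libraries, with hepatocyte-derived library 611 the 1 other library above 1 RPKM. The Ets factor Ehf averaged 45.4 RPKM in hepatocyte-derived ductal cells, 173 RPKM in cholangiocyte-derived ductal cells and 0.94 RPKM in hepatocytes, and the Krüppel-like factor Klf5 averaged 6.92 RPKM in hepatocyte-derived ductal cells, 48.2 RPKM in cholangiocyte-derived ductal cells and 0.13 RPKM in hepatocytes. Zeb1, a repressor of epithelial junction genes, went the other way: it averaged 12.5 ± 0.85 RPKM in hepatocyte-derived ductal cells, 3.44 ± 0.90 RPKM in cholangiocyte-derived ductal cells and 4.77 ± 0.59 RPKM in hepatocytes. In hepatocyte-derived ductal cells it was 1.23 ± 0.13 above hepatocytes (adjusted p = 5.03e-07) and 1.63 ± 0.12 above cholangiocyte-derived ductal cells (adjusted p = 1.13e-07), while cholangiocyte-derived ductal cells lay below hepatocytes, at -0.39 ± 0.13 (adjusted p = 0.0104).

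Of 8 kinases, proteases, protease inhibitors and a palmitoyltransferase that act on claudins, 6 rose and 0 fell in hepatocyte-derived ductal cells against hepatocytes, and 7 rose and 0 fell in cholangiocyte-derived ductal cells. Between the ductal groups 0 were higher and 6 lower in hepatocyte-derived cells. Of all tested genes, 66.2% were higher and 14.8% lower, 67.1% higher and 17.4% lower, and 15.1% higher and 21% lower in these comparisons. With the library number as a block, Wnk4 between the ductal groups lost its call (adjusted p = 0.0930). Each count of 0 was also 0 at an unadjusted limma p under 0.05. After rescaling by median ratios, 4 rose and 2 fell in the hepatocyte-derived group against hepatocytes, where 37.9% of all tested genes rose and 36% fell. In the cholangiocyte-derived group 6 then rose and 1 fell, where 41.1% of all tested genes rose and 37.5% fell. Between the ductal groups 0 were then higher and 5 lower, where 16.8% of all tested genes were higher and 19.2% lower. The membrane protease matriptase, St14, which cleaves EpCAM bound to Cldn7, averaged 24.4 ± 4.51 RPKM in hepatocyte-derived ductal cells, 115 ± 5.89 RPKM in cholangiocyte-derived ductal cells (SD, n = 5 each) and 7.12 ± 2.05 RPKM in hepatocytes (SD, n = 4). Its inhibitor Spint1 averaged 17.5 ± 5.62 RPKM in hepatocyte-derived ductal cells, 149 ± 15.0 RPKM in cholangiocyte-derived ductal cells and 0.86 ± 1.45 RPKM in hepatocytes. The protease prostasin, Prss8, averaged 21.0 ± 3.39 RPKM in hepatocyte-derived ductal cells, 78.5 ± 6.29 RPKM in cholangiocyte-derived ductal cells and 18.4 ± 4.75 RPKM in hepatocytes, and was not called in hepatocyte-derived ductal cells against hepatocytes (adjusted p = 0.230). The log2 fold change between the ductal groups was -2.21 ± 0.14 for St14, -3.07 ± 0.31 for Spint1 and -1.86 ± 0.15 for Prss8 (adjusted p = 3.10e-08, 2.20e-06 and 2.18e-07).

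Genes with the pattern most like the leading claudins were found by Pearson's correlation of log2(RPKM + 1) over the 14 libraries, which share 3 groups. Cldn3 was most like Nek5 (r = 0.987), Atp1b1 (0.986) and Slc22a17 (0.986). Cldn4 was most like Dagla (0.995), Enah (0.995) and Prkar1b (0.993). These are descriptions over 14 libraries in 3 groups, and they largely repeat the differences between the groups.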

How the data were processed

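The authors deposited 1 table of RPKM values for 26005 transcript rows and 14 libraries, rounded to 2 decimals. Reads were aligned to mm9, and Bowtie 0.12.7 and CASAVA are named, per the submitters' processing notes. How reads were counted, and how reads that match several places were treated, is not given in the sources used here. Per the labels' protocols, libraries were made from 75 to 200 ng RNA with TruSeq version 2, a kit for polyadenylated RNA without strand information. The annotation showed no gene overlapping a member. The files give no counts. From the steps between low RPKM values of transcripts of 150 to 700 nt, depth was roughly estimated at 17700000 to 25500000 reads. The steps fitted weakly, with a mean cosine (1 for a perfect fit) of 0.162 to 0.338 over 90 to 136 transcripts a library. Hepatocytes have 4 libraries, while the design text names 3, and 2 columns numbered 220 match titles numbered 120 by group only.

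The row with the highest mean per symbol was kept, genes that reached 1 RPKM in 4 or more libraries were tested on log2(RPKM + 1) with limma 3.58.1 (R 4.3.3, mean-variance trend, 1 model over the 3 groups, two-sided), and calls were made at a Benjamini-Hochberg adjusted p under 0.05. The steps were tested on simulated data. The members, gene lists and markers were chosen with earlier results of these data known. All 10 members are named; from each list, up to 6 a comparison with the smallest adjusted p and those whose call changes direction, except 1 transcription factor that is not reported here. Of 30 listed partner genes 28 are in the table, which names Patj and Ybx3 as Inadl and Csda. Library numbers are shared between groups. The deviations of same-numbered libraries from their group means correlated at 0.797, 0.212 and 0.424 between hepatocyte-derived and cholangiocyte-derived ductal cells (219, 225 and 611) and at 0.512, 0.133 and 0.225 between cholangiocyte-derived ductal cells and hepatocytes (118, 225 and 611). The columns numbered 220 in the ductal groups correlated at 0.428; no title holds that number, so each had a block level of its own. Libraries of different numbers correlated at -0.564 (hepatocyte-derived 219 with cholangiocyte-derived 118) up to 0.464 (hepatocyte-derived 220 with cholangiocyte-derived 118). Cholangiocyte-derived 219 correlated at 0.458 with hepatocyte library 225, above several same-numbered pairs. The correlations therefore do not establish a pairing, and the labels state none. The block by library number assumes one. Alternatives were other scalings, pseudocounts and filters, summed rows, a replicate block, fits on 2 groups, library weights, and leaving out libraries. mm9 coordinates are those of the table; promoter sequences are RefSeq's (GRCm38.p6), and no coordinate was converted.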

Additional observations from a re-analysis of the deposited data

Results flagged for a closer look

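In 6 of 30 groups of libraries, 1 library lay far from the others of its group by Dixon's criterion, which by chance marks about 1 group in 20. Cldn1 was lowest in hepatocyte library 118, at 30.36 RPKM, against 78.8 to 83.5 RPKM in the other hepatocyte libraries. The same library had the highest hepatocyte values of Cldn6, at 1.23 RPKM, and of Cldn10, at 0.05 RPKM, and it held the most macrophage and endothelial marker transcripts of the hepatocyte libraries, whose part was not tested. Cholangiocyte-derived library 611 was lowest of its group in Cldn3, at 379.61 RPKM, and highest in Cldn14, at 4.86 RPKM, and in Cldn10, at 0.37 RPKM. Cldn10 was near 0 in all groups and 0 RPKM in the other hepatocyte libraries. Its flags rest on very low values, where the chance rate need not hold.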

How the results depend on the processing

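Of 702 values of the 27 claudin fold changes under 26 other settings, 670 kept their direction and side of the threshold, 11 lost a call, 11 gained one and 10 changed sign. Cldn12 against hepatocytes turned to -0.26 in hepatocyte-derived and -0.47 in cholangiocyte-derived ductal cells after rescaling by median ratios, and to 0.10 (adjusted p = 0.339) and -0.13 under quantile normalization, which also gave -0.14 for Cldn8 in hepatocyte-derived ductal cells against hepatocytes. Cldn8 was called there under 9 settings (adjusted p over all alternatives 0.00733 to 0.518), and Cldn6 between the ductal groups lost its call under 10 (0.00390 to 0.248). Cldn2 between the ductal groups, uncalled throughout, changed sign after rescaling (0.017), with the replicate block (0.0081), with library weights (0.056), and without hepatocyte-derived 220 (0.096), cholangiocyte-derived 219 (0.013) or 225 (0.076); without each library in turn it was -0.082 to 0.096. The position of Cldn8 was 0.21 with a pseudocount of 0.1. Library weights called 6911 genes between the ductal groups, against 4570 unweighted. Leaving out 1 library at a time, the counts of called genes in hepatocyte-derived ductal cells against hepatocytes, cholangiocyte-derived ductal cells against hepatocytes and between the ductal groups were 8 to 9, 9 to 9 and 6 to 8 claudins, 23 to 26, 25 to 27 and 17 to 21 partners, and 9986 to 10603, 10435 to 11038 and 4014 to 5691 of all tested genes. Same-numbered libraries of hepatocyte-derived ductal cells and hepatocytes correlated at 0.129, 0.0208 and 0.193. The replicate block gave 8, 9 and 6 claudins and changed no claudin call besides that of Cldn6 between the ductal groups, while Tjp3 (adjusted p = 0.0980) and Tmprss2 (0.241) lost theirs in hepatocyte-derived ductal cells against hepatocytes; each 220 column had a block level of its own and drops out of that fit's contrasts. The cause of these changes was not tested.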
